A study of Drosophila melanogaster with 2 samples.

Results

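The genes encoding the subunits of the fly proteasome were examined for binding of kay, the fly Fos protein, near their transcription starts. Members were the protein-coding genes of the Ensembl annotation of the dm6 genome whose symbol begins with Prosalpha, Prosbeta, Rpn or Rpt followed by a digit. This rule took 48 of 13958 protein-coding genes, and the remaining 13910 served as the background. The rule reads gene symbols and uses no peak value. Of the 48 genes, 32 are general subunits, 13 are paralogs whose symbols end in T, T1, T2, R or R1, and 3 end in R2 and were counted apart. The general subunits comprise 7 genes of the 20S alpha ring, 7 of the 20S beta ring, 6 Rpt genes and 12 Rpn genes. Sem1, the gene of a small 19S subunit, does not carry such a symbol and was counted with the regulators.

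Binding was measured by chromatin immunoprecipitation with sequencing (ChIP-seq) in whole adult Drosophila melanogaster males of the kay-GFP strain. The flies were a transgenic line with stable expression of kay carrying GFP at its C-terminal end, their age is given as unknown, and chromatin was precipitated through the tag with an antibody against GFP. There was 1 group with 2 biological replicates, numbered 1 and 3, and chromatin was sonicated to 200 to 800 bp. No untagged or control library was analysed here, so the background is the other protein-coding genes. Binding of the untagged protein was not measured. The chromatin came from all tissues together, so the cells in which a site was bound, and the share of cells, cannot be told apart.

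kay pairs with Jra, the fly Jun, to form AP-1, a leucine zipper transcription factor that acts below the JNK kinase cascade in wound closure, stress and cell death. The proteasome degrades proteins tagged with ubiquitin: a 20S core of stacked alpha and beta rings holds the proteolytic sites, and a 19S particle of Rpt ATPases and Rpn subunits recognises, unfolds and feeds in the substrate. Transcription of proteasome genes is known to be raised as a block when proteasomes fail, through CncC in flies and its relatives of the Nrf family in mammals, which bind antioxidant response elements together with small Maf proteins. Flies also carry duplicated subunit genes, several of them known to be expressed in the testis.

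A gene was called marked in a peak list when a summit, the highest point of a peak, lay within 1 kb of any of its annotated transcription starts. On dm6 there were 13835 peaks in the replicate 3 list and 2060 in the replicate 1 list. The list called on the pooled replicates had 4350, and the optimal list of the irreproducible discovery rate step had 199. In this order, 478, 185, 327 and 199 of these peaks had a deposited q-value of at most 0.05, and 31, 36, 33 and 34 lay on the mitochondrial chromosome, where no member lies. The pooled list is labelled as peaks and background, the input of the discovery rate step. Most entries outside the optimal list had a q-value above 0.05, so a marked gene is not by that alone a bound gene. The depth of the libraries is unknown here. With 1 group and 2 libraries no test over samples could be made, and 95% Wilson intervals are given with the shares for counting error alone.

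Proteasome subunit genes had no kay summit near their starts outside the list of replicate 3. In that list 8 of 48 members were marked, or 16.7% (95% Wilson interval 8.70 to 29.6%), beside 27.3% of the other protein-coding genes (3801 of 13910). In replicate 1, 0 of 48 members were marked (interval 0 to 7.41%), beside 6.74% of the others. The pooled list marked 0 of 48 members, beside 11.1% of the others, and the optimal list 0 of 48, beside 0.992%. Both replicate lists together marked 0 of 48 members, beside 6.2%. With 48 genes, the last 4 intervals all reach 7.41%, so for the pooled list alone the background share lay above the interval. In replicate 3 the background share lay inside the interval of the members.

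The replicate 3 list is the longest, and most marked members, like most other marked genes, had peaks below its 2060 highest. When this list was limited to its 2060 highest peaks, the length of the replicate 1 list, 2 of 48 members remained, Rpn9 and Rpn6, beside 8.78% of the other genes. Among peaks with a q-value of at most 0.05, 1 of 48 members was marked, Rpn9, beside 2.69% of the others. At 1000 peaks Rpn9 was also the only member, beside 5.11% of the others, and at 5000 peaks there were 5 members, or 10.4%, beside 15.7%.

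**Figure D1:**
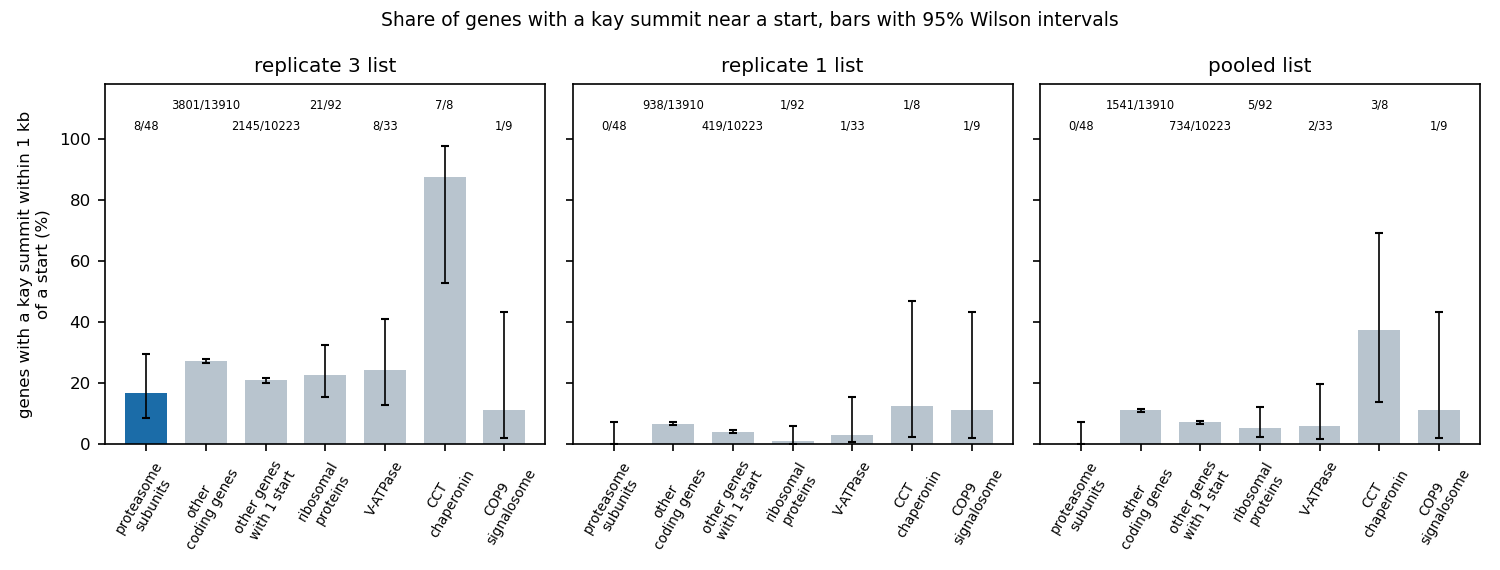
Percentage of genes with a kay summit within 1 kb of a start, in the lists of replicate 3, replicate 1 and the pooled call (panels), for proteasome subunit genes (blue) and for other protein-coding genes, those of them with 1 start, and 4 comparison gene lists (grey); bars are shares, lines are 95% Wilson intervals, and the counts stand above. The blue bar is 8 of 48 in replicate 3 and 0 of 48 in the other panels, while 27.3%, 6.74% and 11.1% of the other genes were marked.

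The 20S core has 14 general subunit genes, and 3 of them were marked in replicate 3, where 27.3% of the other genes were. In the alpha ring, whose outer face gates entry into the core, 1 of 7 genes was marked, Prosalpha6. Among the others of this ring, Prosalpha4 had its nearest replicate 3 summit at 1103 bp, just outside the limit, and Prosalpha7 had the farthest, at 13646 bp. In the beta ring, which carries the proteolytic sites, 2 of 7 genes were marked, Prosbeta2 and Prosbeta7, or 28.6%, a share near that of the other genes. Prosbeta2 encodes the subunit with trypsin-like activity. Prosbeta1 and Prosbeta5, the genes of the caspase-like and chymotrypsin-like subunits, had no summit of replicate 3 nearer than 28539 and 10556 bp.

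None of the 6 Rpt genes, which encode the ATPase ring that unfolds substrates, was marked. Their nearest replicate 3 summits lay between 7912 bp for Rpt5 and 18945 bp for Rpt3. Of the 12 Rpn genes 3 were marked, namely Rpn6, Rpn7 and Rpn9, or 25.0%, near the 27.3% of the other genes. These 3 encode subunits of the lid, the part of the 19S particle that holds the deubiquitinase. Other lid subunit genes were not marked, among them Rpn5 and Rpn12, with nearest replicate 3 summits at 32022 and 8641 bp. Rpn11, the deubiquitinase itself, had its nearest summit at 11306 bp. Rpn10 and Rpn13, both ubiquitin receptors, had theirs at 5139 and 6132 bp, and Rpn2, a large scaffold subunit, at 41835 bp, the farthest of all members. The shares per role rest on 6 to 12 genes each and their intervals overlap, with upper limits from 39.0% for the Rpt genes to 64.1% for the beta ring. Differences between roles were not tested.

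The highest peak at any member was that of Rpn9 (FBgn0028691, 3R 23731375 to 23733462, minus strand). It spanned 3R 23732915 to 23733338 in replicate 3, had a signal of 98.2 and ranked 97 of 13835, with a q-value of 0.00243. Signal is the authors' own value per peak, on a scale that differs between lists, and served here for ranks inside a list. The summit, at 3R 23733127, lay 116 bp upstream of the nearer of the 2 Rpn9 starts, at 23733011, and inside the gene, since the other start is at 23733462. Another protein-coding start also lies within 1 kb of the summit, and whether the peak acts on Rpn9 was not tested.

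The sequence under the Rpn9 summit is shown because it was the only one of the members' summits with an exact AP-1 site. The site searched was TGACTCA or TGAGTCA, each the reverse complement of the other, on either strand, up to 100 bp from the summit. The 201 bases at chr3R:23733027-23733227 (dm6, minus strand, read 5′ to 3′) are printed with the site in capitals. They hold no annotated UTR and 26.9% of them are G or C.
Rpn9 summit: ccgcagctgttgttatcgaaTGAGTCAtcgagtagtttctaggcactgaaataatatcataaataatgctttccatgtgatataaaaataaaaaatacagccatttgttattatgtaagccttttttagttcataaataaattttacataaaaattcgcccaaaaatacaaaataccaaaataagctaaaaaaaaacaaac
The site lies at 3R 23733201 to 23733207, with its middle 77 bp from the summit and 193 bp from the nearer Rpn9 start. Among marked genes, 1 of 8 members had such a site under the summit, beside 4.51% of the other nuclear genes (171 of 3788). It lay there in 3.49% of all 13804 nuclear summits of replicate 3, and in 28.8% (19 of 66) of the nuclear summits ranked at or above that of Rpn9.

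The Rpn9 peak was absent from the other lists. Of the 66 nuclear peaks of replicate 3 ranked at or above it, 50 (75.8%) overlapped a peak of replicate 1 by at least 1 bp, and 55 (83.3%) overlapped one of the pooled and of the optimal list. The Rpn9 peak was among the 16 without overlap in replicate 1 and the 11 without overlap in the pooled list. The nearest summits in those lists lay 3347 and 3079 bp from the nearer Rpn9 start, on the far side of Rpn9, over the neighbouring gene CG10365. Replicate 3, replicate 1 and the pooled call each had several peaks there. One of them, with its summit at -4792 bp from the Rpn9 start on the plus strand in replicate 3 and -4835 bp in the other lists that had it, ranked 501 in replicate 3, 930 in replicate 1 and 546 in the pooled list. The map of the region shows this cluster beside the single peak at Rpn9.

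**Figure D2:**
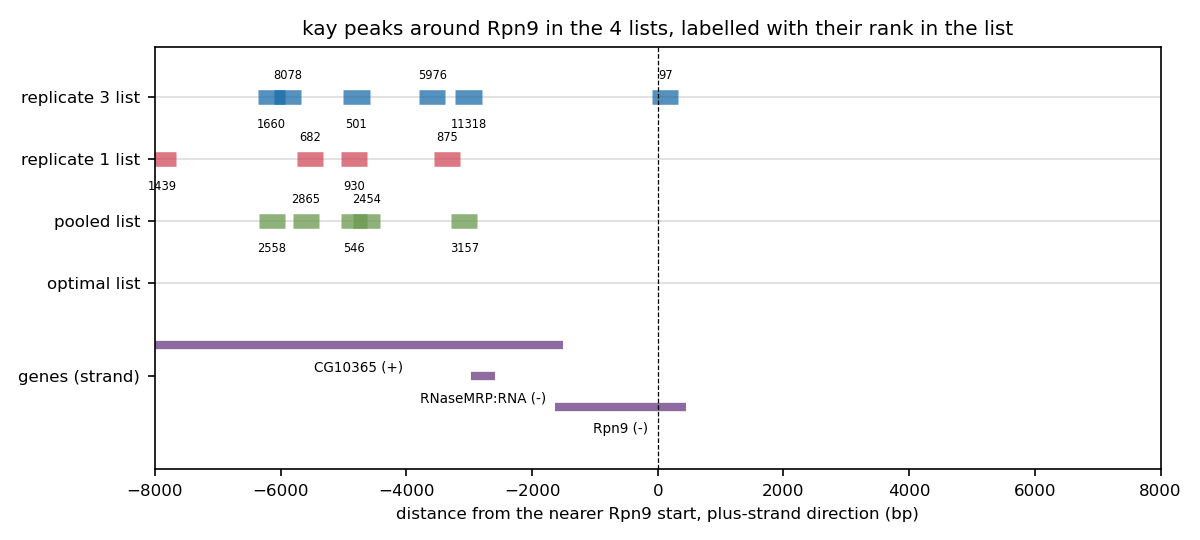
Peaks of the 4 dm6 lists around Rpn9, by distance in bp from the nearer Rpn9 start along the plus strand (0, dashed), with the rank of each peak in its list and, beneath, the genes that lie wholly within 10 kb of that start, with their strand. The peak over the Rpn9 start, rank 97, is in the replicate 3 row alone, while the replicate 3, replicate 1 and pooled rows all have peaks over CG10365.

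Rpn6 had the next peak in rank. Its peak lay at 2R 14752181 to 14752604 with a signal of 37.7, rank 1195 and a q-value of 0.209, and the summit was 122 bp upstream of a start. Rpn6 also has 2 starts, and the summit lay inside the gene and 128 bp from the start of ave on the opposite strand. Rpn6 is known to brace the lid against the core particle in yeast. No replicate 1 summit lay within 13613 bp of the Rpn6 starts.

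The other 4 general members had weaker peaks, with q-values from 0.383 to 0.869. Prosbeta7, of the beta ring, had a summit 508 bp upstream with signal 28.9 and rank 2406, and no other coding gene starts nearer than Cerk at 3194 bp. Rpn7 had a summit 188 bp upstream with signal 28.8 and rank 2433, in the interval it shares with AP-2mu, a clathrin adaptor gene on the opposite strand that starts 213 bp from the summit. Prosalpha6 had its highest summit 299 bp upstream with signal 24.0 and rank 3887, which is nearer to Npc1a, a sterol transport gene, at 100 bp. It had 3 summits within 1 kb, the closest at 99 bp, the smallest distance of any member. Prosbeta2 had a summit 704 bp upstream with signal 15.7 and rank 10313, inside mRpL39, a mitochondrial ribosomal protein gene whose start is 419 bp away.

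The Rpn7 and Prosbeta2 summits are shown to set sequences of weak peaks against that of Rpn9. The Rpn7 window is chr3R:22462142-22462342 (dm6, minus strand) and held none of the 7 motifs searched. The Prosbeta2 window is chr3L:14999147-14999347 (dm6, plus strand). It held the antioxidant response element core TGACNNNGC, in capitals, the only match to that motif under the summits of the 8 members, against 4.28% of the other marked genes.
Rpn7 summit: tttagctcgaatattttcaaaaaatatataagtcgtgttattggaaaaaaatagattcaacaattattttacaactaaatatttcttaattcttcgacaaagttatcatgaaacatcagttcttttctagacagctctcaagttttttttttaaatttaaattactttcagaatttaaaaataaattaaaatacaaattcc
Prosbeta2 summit: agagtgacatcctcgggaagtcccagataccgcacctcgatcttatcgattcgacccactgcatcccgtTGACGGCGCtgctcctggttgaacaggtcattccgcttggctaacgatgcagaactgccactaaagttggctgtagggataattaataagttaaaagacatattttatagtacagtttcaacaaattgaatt
Of the bases in the Rpn7 window 20.9% are G or C, and 44.8% in the Prosbeta2 window.

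All 8 summits lay upstream of the nearest start of the gene, beside 68.9% of the other marked genes. Those of Rpn9 and Rpn6 still lay inside the gene, downstream of its outer start. For 5 of the 8 another protein-coding gene also starts within 1 kb of the summit, which held for 38.4% of the others. The median distance from summit to start was 173 bp for the members and 315 bp for the others. In rank the members' highest summits had a median of 3160, beside 4028 for the other marked genes, and 1 of 8 had a q-value of at most 0.05, beside 9.84%. None of the 8 peaks overlapped a peak of replicate 1 or of the pooled list. Most other marked genes were not marked in replicate 1 either: of 3801 marked in replicate 3, 862 were marked in both. Their nearest summits in the other lists are given for the 8 members. For the 8 members the nearest replicate 1 summits lay from 3347 bp for Rpn9 to 48569 bp for Prosbeta7. Their nearest pooled summits lay from 3079 bp for Rpn9 to 36176 bp for Prosbeta7.

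Beyond the limit of 1 kb, the median distance to a summit was longer for members than for other genes in 3 of the 4 lists, without a test. In replicate 3 the median distance from a member to its nearest summit was 8886.5 bp, beside 4412.5 bp for the other genes. It was 33027 bp beside 31275 bp in replicate 1, 21475 bp beside 18375.5 bp in the pooled list, and 240548 bp beside 257687 bp in the optimal list. Within 250 bp the shares in replicate 3 were 12.5% of members and 14.5% of others, and they lay farther apart at 2 kb (20.8 and 36.3%) and 5 kb (33.3 and 52.7%). Widening to 2 kb added Prosalpha4 and the paralog Prosalpha3T, at 1461 bp. In replicate 1 the first members appeared within 5 kb, where there were 2 of 48, or 4.17%, beside 15.1% of the others.

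**Figure D3:**
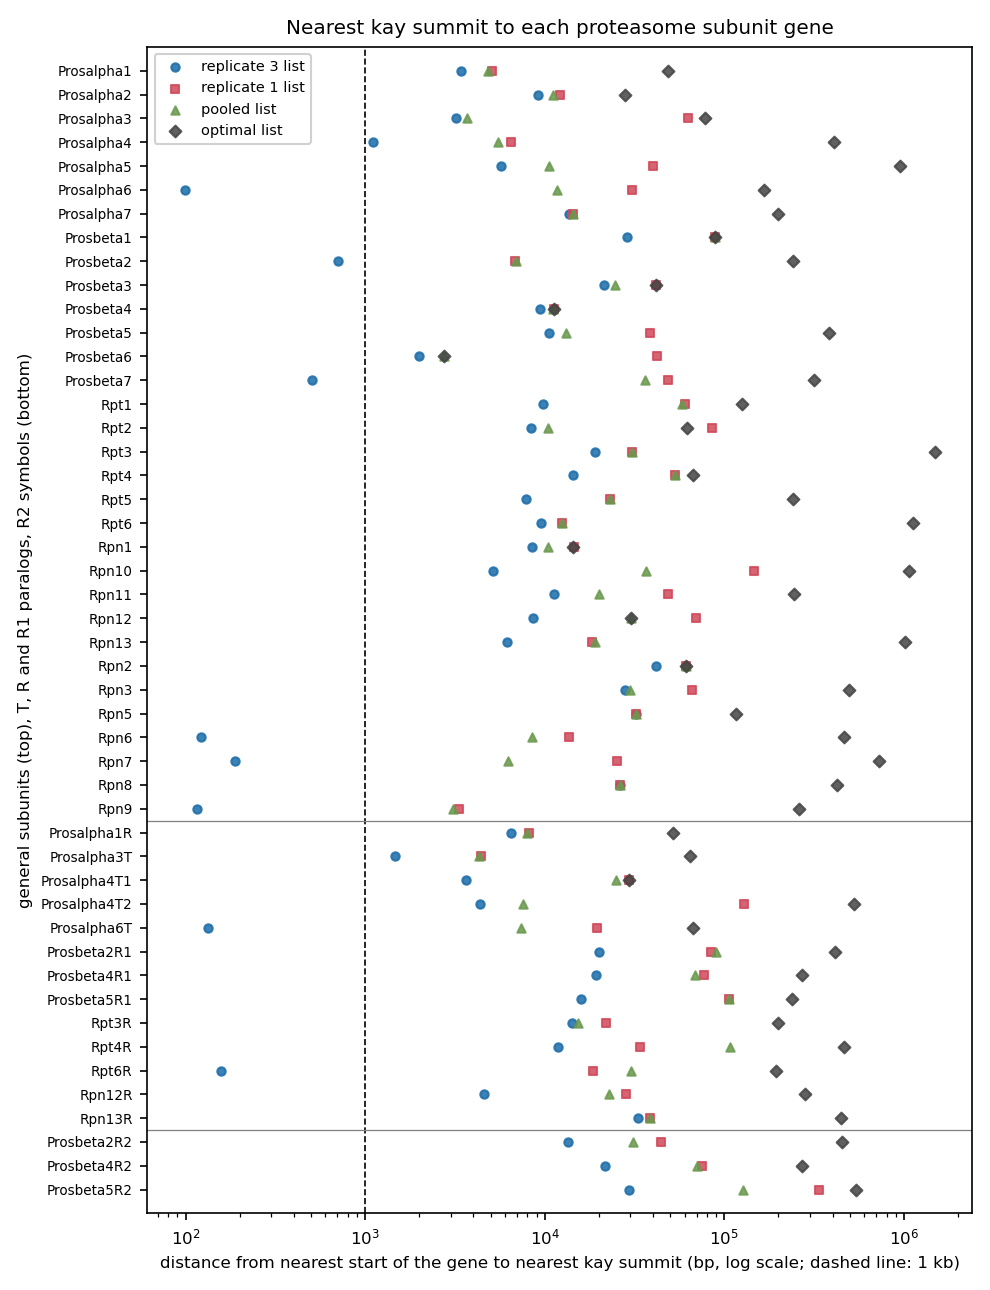
Distance from the nearest start of each of the 48 proteasome subunit genes (rows, with general subunits on top, then the T, R and R1 paralogs and the R2 symbols) to the nearest kay summit, in bp on a log axis, with 1 symbol per peak list and a dashed line at 1 kb. Only replicate 3 symbols lie left of the line, for 8 genes, and the closest optimal list summit lies 2754 bp from Prosbeta6.

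The optimal list came closest to the proteasome genes at Prosbeta6, a beta ring gene. That peak, at 3L 16612962 to 16613381 with signal 116 and rank 193 of 199, had its summit 2754 bp from Prosbeta6 and 345 bp from a start of asRNA:CR45865. Prosbeta4 lay 11289 bp from an optimal peak at 2L 16720634 to 16721053, which had signal 171 and rank 91 and was 912 bp from a start of Cyt-c-p, a cytochrome c gene. Rpn1, a large 19S scaffold subunit gene, lay 14326 bp from the next. No other member had an optimal summit within 20 kb, which leaves 3 of 48, or 6.25%, beside 7.04% of the other genes.

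General subunits and paralogs were both marked in replicate 3 and in no other list. There, 6 of 32 general subunits were marked, or 18.8% (interval 8.89 to 35.3%), and 2 of 13 paralogs, or 15.4% (interval 4.33 to 42.2%), beside 27.3% of the other genes, which lies inside both intervals. Of the 3 genes with R2 symbols 0 were marked. The intervals overlap and the difference was not tested. The marked paralogs were Rpt6R, related to the ATPase gene Rpt6, and Prosalpha6T, which is known to be made in the testis and to replace Prosalpha6 in sperm development. Rpt6R had a summit 158 bp upstream with signal 18.9, rank 6814 and a q-value of 0.722. Prosalpha6T had one 134 bp upstream with signal 14.1, rank 12953 and a q-value of 0.937. No other coding gene starts within 1 kb of these summits. Rpt6R thus ranked near the middle of the list and Prosalpha6T near its end. Among the 2060 highest peaks 0 of 13 paralogs and 2 of 32 general subunits were marked, beside 8.78% of the other genes. Prosalpha6 and Prosalpha6T were both marked, whereas Rpt6 had no summit nearer than 9501 bp.

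The sequence shared most widely by the subunit promoters, among the motifs searched, was the DNA replication related element. Promoters were taken as the reference sequence from 250 bp before to 50 bp after the outermost start of each gene, and 7 motifs were searched on both strands. This element, TATCGATA, which the factor Dref binds, was in 12 of 48 promoters, or 25.0% (interval 14.9 to 38.8%), beside 9.30% of the 13897 other nuclear promoters. All 12 were promoters of general subunits, 37.5% of these, and 0 of 13 paralogs had it. It was in the promoters of Prosalpha3, Prosalpha5, Prosalpha6, Prosbeta1, Prosbeta2, Prosbeta6, Rpn3, Rpn7, Rpn9, Rpn12, Rpn13 and Rpt5, and 4 of these 12 genes were marked in replicate 3, where 27.3% of the other genes were. Of the other marked genes 9.85% had the element. The element was under none of the 8 summits, beside 3.70% for other marked genes. This is a match of letters and was not tested as a site.

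Promoters of a marked and an unmarked gene with the element are printed to show how its place differs, with TATCGATA in capitals. Prosbeta2 has it just before the start and Rpn12, a lid subunit gene with its nearest replicate 3 summit 8641 bp away, has it at position -216 from its own. Both sequences are the 250 bases before the start, at chr3L:14999701-14999950 and chr3L:16582778-16583027 (dm6, plus strand), and hold no annotated UTR.
Prosbeta2 promoter: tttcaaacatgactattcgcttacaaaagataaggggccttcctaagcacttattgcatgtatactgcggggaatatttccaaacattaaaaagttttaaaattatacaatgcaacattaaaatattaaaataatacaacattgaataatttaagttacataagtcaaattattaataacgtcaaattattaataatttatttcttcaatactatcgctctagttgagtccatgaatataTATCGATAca
Rpn12 promoter: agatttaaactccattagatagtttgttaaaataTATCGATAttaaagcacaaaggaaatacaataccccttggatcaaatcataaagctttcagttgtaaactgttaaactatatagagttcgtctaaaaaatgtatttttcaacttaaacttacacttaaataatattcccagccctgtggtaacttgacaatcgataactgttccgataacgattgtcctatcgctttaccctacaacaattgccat
The element at Prosbeta2 starts 10 bp before the gene's start.

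The AP-1 site was in 1 of 48 promoters, or 2.08%, beside 2.49% of the other promoters. This was Rpn5, a lid subunit gene, whose nearest replicate 3 summit lay 32022 bp away and whose nearest replicate 1 summit lay 32118 bp away. The site is shown to set an AP-1 match without a peak beside that of Rpn9, in capitals within 29 bases at chr3R:5789363-5789391 (dm6, plus strand). Of these 29 bases 22 are annotated UTR, although they lie before the Rpn5 start.
Rpn5 AP-1 site: ctgacaaatttTGAGTCAtactttgagtt
It starts 119 bp before the Rpn5 start. That its 7 letters are those of the Rpn9 site follows from the search, which allowed no others.

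The antioxidant response element core TGACNNNGC was in 6 of 48 promoters, or 12.5%, beside 8.62% of the others. These were Prosalpha2, Prosbeta3, Rpn1, Rpn7, Rpt6 and Prosbeta4R2. Of these 6 genes 1 was marked in replicate 3, Rpn7, beside 27.3% of the other genes. Motif 1, searched as GGTCACAC, was in 5 promoters, or 10.4%, beside 7.69%, those of Prosalpha2, Prosalpha4, Prosbeta3, Rpn1 and Rpn7. In Rpn1 and Prosbeta3 its letters overlap those of the antioxidant core, so the matches are not independent. The GAGA string GAGAGAG was in 2 promoters, Rpt4R and Prosbeta2R2, or 4.17%, beside 5.87%. The CRE string TGACGTCA and the E-box CACGTG were in 0 of 48 promoters, beside 0.439% and 4.22% of the others. Under the summits of the 8 marked members there was no CRE, GAGA, Motif 1 or E-box match, beside 0.475%, 4.78%, 2.11% and 1.98% for the other marked genes.

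**Figure D4:**
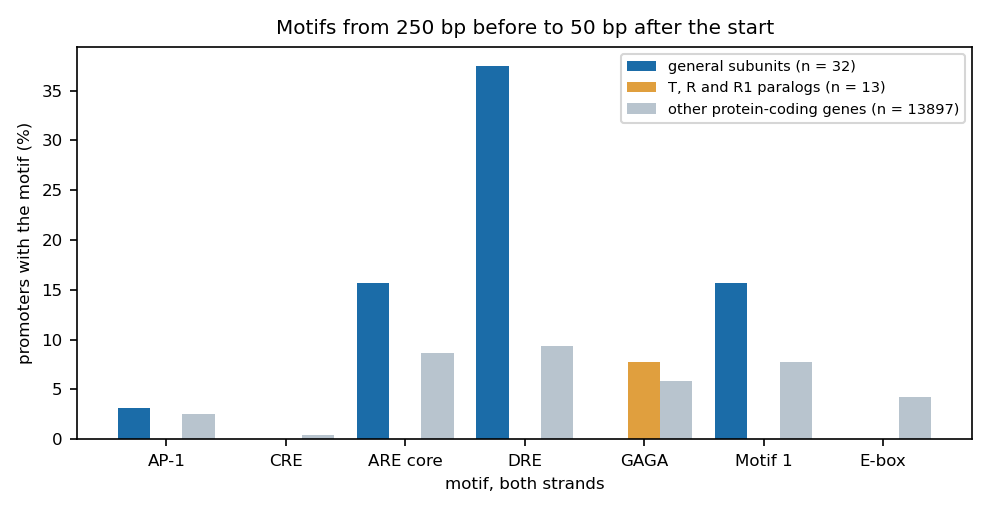
Percentage of promoters (250 bp before to 50 bp after the start) holding each of 7 motifs on either strand, for general subunits, the T, R and R1 paralogs, and the other protein-coding genes. The DRE bar is 37.5% for general subunits, 0 for paralogs and 9.30% for other genes, and the AP-1 bars are low in all groups.

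A summit near any annotated start marked a gene, so shares are also given by the number of starts. With only the outermost start of each gene, the same 8 members were marked in replicate 3. A single start was annotated for 36 of 48 members (75%) and for 73.5% of other genes, while 3 or more starts were annotated for 1 of 48 members and for 1132 of 13910 others. The median gene length was 1381.5 bp, beside 2170 bp. Among genes with 1 start, 5 of 36 members (13.9%) were marked in replicate 3, beside 21.0% of the others, and among genes with 2 starts 3 of 11 (27.3%), beside 37.1%. Of the other genes with 3 or more starts 62.5% were marked, and the 1 such member was not. Splitting by the number of starts was chosen after the values were seen. On the X chromosome, of which males carry 1 copy, 0 of 6 members were marked, beside 19.9% of other X genes. On 3R 4 of 14 members were marked, beside 26.9% of the other genes there, and on 2L 2 of 8, beside 29.1%, both near the background. On 2R it was 1 of 13, beside 26.7%, and on 3L 1 of 7, beside 30.8%. The background share also lay inside the members' interval on X (0 to 39.0%), 2R (1.37 to 33.3%) and 3L (2.57 to 51.3%). Differences between chromosomes were not tested.

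Genes that work with the proteasome were counted in lists of 5 to 7 genes, beside the 27.3% of other genes marked in replicate 3. In the replicate 1, pooled and optimal lists 6.74%, 11.1% and 0.992% of the other genes were marked. Of 6 regulators and assembly genes 4 were marked, led by Sem1 with rank 2510 and PI31, a proteasome regulator, with rank 2615, and the pooled list marked 1 of them, PI31. Of 5 genes of ubiquitin and its activation 2 were marked, Ubi-p63E with rank 751 and RpS27A with rank 1474, both encoding ubiquitin precursors, and neither in another list. Of 7 genes of the TER94 segregase and ubiquitin shuttles, 1 was marked, Rad23, a shuttle that carries ubiquitinated proteins to the proteasome, with rank 1168, and it was also marked in the pooled list with rank 2133. In the CncC arm 2 of 5 genes were marked in each of the 4 lists: cnc, whose CncC product controls proteasome genes, ranked 152 in replicate 3 and 157 in replicate 1, and Keap1, its inhibitor, ranked 210 and 400. The other CncC arm genes, maf-S, rngo and Pngl, were marked in none. These lists were chosen with earlier results known, and differences from the subunits were not tested.

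The COP9 signalosome, a relative of the 19S lid, had 1 of 9 genes marked in replicate 3, alien (CSN2), with rank 316, and the same gene in replicate 1 with rank 1295 and in the pooled list with rank 379. The CCT chaperonin, which folds actin and tubulin, had 7 of 8 genes marked in replicate 3 (87.5%, interval 52.9 to 97.8%), led by CCT7 with rank 85 and CCT5 with rank 374, with 1 of 8 in replicate 1 and 3 of 8 in the pooled list. Of 92 cytosolic ribosomal protein genes 21 were marked (22.8%), led by RpLP1 with rank 64 and RpLP0-like, which the symbol rule also takes, with rank 792, with 1 of 92 in replicate 1 and 5 of 92 in the pooled list. Of 33 vacuolar ATPase genes 8 were marked (24.2%), led by Vha16-1 with rank 407 and Vha68-2 with rank 1026, with 1 of 33 in replicate 1 and 2 of 33 in the pooled list. The replicate 3 shares of ribosomal and vacuolar ATPase genes lay near the 27.3% of other genes. Of the other genes 6.74% were marked in replicate 1 and 11.1% in the pooled list. The ribosomal and vacuolar ATPase shares in these 2 lists were lower, without a test. In the optimal list no gene of these 4 complexes was marked, beside only 0.992% of the other genes.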

How the data were processed

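ChIP-seq of GFP-tagged kay was examined in 2 libraries of 1 group, per the labels. The deposited narrowPeak lists on dm6 hold, for each peak, the authors' peak signal, the authors' -log10 q-value and the offset in bp of the summit from the peak start. Per the deposited listing of files, replicate lists came from each library's own alignments and 1 control file, and the pooled list from both. Neither aligner, peak caller nor discovery rate threshold is named (not given in the sources used here). Some items near the members are not reported here. Lists on dm3 were not used, and 0 value columns were left unmapped.

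Transcription starts came from the Ensembl release 115 annotation of the Release 6 genome, and sequences and synonyms from RefSeq. A gene was marked by a summit within 1 kb of any start. Analysis used Python 3.11.15 with numpy 2.4.6, pandas 2.3.3, scipy 1.17.1 and matplotlib 3.10.9, and the marking was tested on simulated data. No p-values were computed. Members, gene lists, motifs and alternatives were chosen with earlier results of these data known. The named genes were the members with the best replicate 3 rank (at most 20), marked paralogs, and the 2 best-ranked genes per list. Members with no summit within 1 kb, those with a motif and those near optimal peaks were named after their values were seen. Alternatives were other distances, peak intervals over a start, stricter q-values, gene starts only, shorter lists, each replicate alone and other promoter windows.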

Additional observations from a re-analysis of the deposited data

How the results depend on the processing

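The count of marked members in replicate 3 was 8, and it was between 6 and 10 with summits within 500 bp or 2 kb, peak intervals over a start or gene starts only. Within 500 bp and 2 kb 21.1% and 36.3% of the other genes were marked. The count of members was 1 with a q-value of at most 0.05, beside 2.69% of the other genes. It was 2 in the highest 2060 peaks, beside 8.78%, and both settings leave fewer peaks. The q-value limit and the shorter list left 1 and 2 general subunits and 0 and 0 paralogs. In the replicate 1, pooled and optimal lists the count was 0 within 500 bp, 1 kb and 2 kb. The other alternatives listed for these lists also gave 0. At 5 kb the counts were 2, 5 and 1, beside 15.1%, 23.4% and 2.22% of the other genes. Requiring both replicates gave 0, and leaving out a replicate gave 0 to 8, with 8 from replicate 3 alone, so the count of 8 within 1 kb rests on replicate 3. AP-1 in promoters fell to 0 of 48 within 100 bp either side of the start, a window that leaves out the Rpn5 site. The other alternatives moved a count of marked members by at most 1.5 times, and kept each share of promoters inside its main interval. In the highest 2060 peaks the median percentile of the members' ranks was 95.3, beside 77.2 in the full list. The median distance there was 119 bp, beside 173 bp. Rank and distance in the replicate 1 list gave no value because no member was marked there. No paired analysis was possible because there is 1 group. Depth is unknown, so its part in the shorter list of replicate 1 was not tested.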
